A study of Mus musculus with 8 samples.

Results

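The genes described here encode the structural subunits of the 5 oxidative phosphorylation complexes. They were measured by RNA sequencing of the hearts, in the series text the ventricles, of mouse embryos collected on embryonic day 11.5. The genes were taken by symbol from a gene-level table of TPM values, a unit that divides reads by transcript length and scales each library to a common total. The symbols were those of the Nduf a, b, c, s and v series (complex I), Sdha to Sdhd (complex II), the Uqcr series (complex III), Cox4 to Cox8 (complex IV) and Atp5 (complex V), together with the 13 mitochondrially encoded subunits. Rows with a hyphen in the symbol were not taken, and a mean of at least 1 TPM over the 8 libraries was required. Of 52778 features in the table, 109 carried such a symbol and 100 met the mean, comprising 87 nuclear and 13 mitochondrially encoded genes. The 9 rows below 1 TPM were 6 duplicates on alternative or patch sequences, all listed at 0, and Ndufa11b, Cox7b2 and Cox8c.

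The study compared 4 libraries from control embryos with 4 from embryos homozygous for Atf4(del7/del7), an allele made with CRISPR/Cas9 that lacks 7 bases of Atf4 exon 3 and so shifts the reading frame. ATF4 is the transcription factor of the integrated stress response, which raises amino acid synthesis and transport genes when translation initiation is curbed. The allele is global, so every cell type of the embryo carries it, and no drug or other challenge was given. The labels name C57BL/6 for both groups, and their genotype entry reads wild type for the mutants too, so the groups were taken from the sample titles. All libraries are recorded as batch 1, and 4 biological replicates per genotype are stated, without the number of embryos behind a library or their sex. The labels disagree on the tissue and the library. The sample titles name the heart, and the series text describes ventricular RNA and a stranded mRNA kit. The sample protocol instead describes cultured cortical neurons and ribosomal RNA depletion.

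Oxidative phosphorylation moves electrons from NADH and succinate through complexes I, II, III and IV to oxygen and uses the resulting proton gradient to make ATP at complex V. Complex II is entirely nuclear encoded, whereas the other complexes combine nuclear subunits with core subunits made from the mitochondrial genome, which is transcribed as long polycistronic RNAs. The embryonic heart moves from a largely glycolytic to an oxidative metabolism during development, and in muscle several complex IV subunits have a heart and skeletal muscle isoform beside a ubiquitous one.

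The tissue label was checked against marker genes. All 11 ventricular cardiomyocyte markers were tested, with a summed level of 28107 to 30341 TPM in controls and 27625 to 30103 TPM in mutants. Atrial markers, whose sums are given below, were present too, so this check does not tell ventricle from whole heart. The 10 neuronal markers, of which 2 reached the level for testing, summed to 9.44 to 15.4 TPM in controls and 10.4 to 12.0 TPM in mutants, and 4 of them, Snap25, Neurod6, Tbr1 and Rbfox3, had means below 0.1 TPM. The 7 hepatocyte markers, of which 0 were tested, summed to 0.674 to 1.36 TPM in controls and 0.637 to 1.19 TPM in mutants, with Alb, Serpina1a, Fgb and Hnf4a below 0.1 TPM. Of 10 macrophage markers, 8 were tested and 5 of those had an unadjusted p below 0.05 in limma, beside 6.10% of all genes tested. The median log2 fold change of the 8 was -0.56. All 10 summed to 66.8 to 90.5 TPM in controls and 55.2 to 67.1 TPM in mutants. Of 12 erythroid markers, all tested, 2 had an unadjusted p below 0.05, beside 6.10% of all genes tested, at a median log2 fold change of -0.28. The 12 summed to 4693 to 8000 TPM in controls and 4383 to 6101 TPM in mutants. No marker list held a gene with an adjusted p below 0.05, and the part of these cell types in the values below was not tested. In bulk tissue, fewer cells of a type and less RNA per cell cannot be told apart. Atf4 itself was at 105, 121, 115 and 105 TPM in the control libraries and at 166, 164, 185 and 148 TPM in the mutant libraries. Its log2 fold change was 0.57 (limma, adjusted p of 0.0430), a call lost under 13 of 18 alternatives, 7 of them the removal of a library (adjusted p of 0.101 to 0.184 without any one but mutant replicate 4). A level over the whole transcript does not show whether the deletion is present.

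Promoters of 4 subunit genes are given first, because the results turn on them or on their isoform partners. Ndufa3 was the member whose control and mutant libraries did not overlap, Cox6a1 is the ubiquitous partner of Cox6a2, and Cox8a and Cox8b are a ubiquitous and a heart and muscle isoform of the same subunit. The 250 bases before each start are from RefSeq on GRCm38.p6, read 5′ to 3′ on the gene's strand. They lie at chr7:3617123-3617372 (plus strand, Ndufa3), chr5:115348959-115349208 (minus strand, Cox6a1), chr19:7217617-7217866 (minus strand, Cox8a) and chr7:140900447-140900696 (minus strand, Cox8b). For Ndufa3 the gene bounds given below begin at base 3617347, ahead of the RefSeq start, so the end of its stretch lies within them. Capitals mark matches to the motifs named below.
Ndufa3: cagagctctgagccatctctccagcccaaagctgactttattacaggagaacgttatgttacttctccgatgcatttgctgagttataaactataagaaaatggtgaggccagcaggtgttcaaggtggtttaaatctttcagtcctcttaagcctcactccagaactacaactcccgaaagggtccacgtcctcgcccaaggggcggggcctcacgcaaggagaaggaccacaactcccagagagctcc
Cox6a1: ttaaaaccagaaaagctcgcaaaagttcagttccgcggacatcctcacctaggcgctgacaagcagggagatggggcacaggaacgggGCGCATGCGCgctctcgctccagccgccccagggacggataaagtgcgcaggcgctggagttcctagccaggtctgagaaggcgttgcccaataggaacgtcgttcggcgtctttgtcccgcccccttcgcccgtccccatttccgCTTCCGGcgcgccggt
Cox8a: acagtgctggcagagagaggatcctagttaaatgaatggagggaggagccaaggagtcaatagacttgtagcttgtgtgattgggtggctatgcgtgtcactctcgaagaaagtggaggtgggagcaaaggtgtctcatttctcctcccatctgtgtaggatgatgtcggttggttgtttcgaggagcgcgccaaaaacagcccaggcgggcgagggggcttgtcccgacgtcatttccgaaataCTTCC
Cox8b: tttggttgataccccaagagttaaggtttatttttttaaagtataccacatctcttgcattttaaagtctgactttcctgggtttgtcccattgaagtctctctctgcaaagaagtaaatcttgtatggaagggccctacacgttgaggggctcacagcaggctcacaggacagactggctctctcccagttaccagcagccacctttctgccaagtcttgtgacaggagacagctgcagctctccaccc

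Motifs for 5 factors or families were searched on both strands in windows from 250 bases before to 50 bases after the start. They were the 10-letter palindrome of NRF1, printed in capitals in the Cox6a1 promoter, and CCGGAAG for ETS factors such as GABP, both bound by activators of respiratory chain genes. The others were a 10-letter motif of YY1, AAGGTCA for oestrogen-related receptors, and TGATGNAA, the core of the element bound by ATF4 with C/EBP partners. RefSeq gave 74 windows for 69 of the 87 nuclear members, and none for the other 18, Cox6a2 among them. The ETS letters were in 17 of the 74 windows (23.0%), against 8.86% of all 32851 windows and 16.9% of the 13595 windows of tested genes. The NRF1 and YY1 letters were each in 5 member windows (6.76%), against 0.971% and 0.852% of all windows and 1.92% of tested-gene windows for either motif. The oestrogen-related receptor letters were in 8 member windows (10.8%, against 4.72% of all windows and 3.13% of tested-gene windows). The ATF4 core was in 0 of 74 member windows, against 3.97% of all windows and 2.2% of tested-gene windows. Of the promoters printed, that of Cox6a1 held the NRF1 letters and the reverse complement of the ETS letters, and that of Cox8a ended in the first 5 bases of a reversed ETS match that ran on past the start. The Ndufa3 and Cox8b stretches held none of the 5 motifs. Member windows had a median GC content of 57.5%, against 52.7% over all windows and 60.7% over those of tested genes, and a match to these letters is a description of the window only.

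No oxidative phosphorylation gene differed between mutant and control hearts at an adjusted p below 0.05. This call used limma on log2(TPM + 1) over 15545 genes that reached 1 TPM in at least 4 of the 8 libraries, with Benjamini-Hochberg adjustment, and all 100 members were among them. Over all genes tested, 6 passed (0.0386%). At an unadjusted p below 0.05 there were 2 of the 100 members, both lower in the mutants, beside 6.10% of all genes tested in either direction and 3.45% in that direction. Control and mutant values did not overlap for 1 member, again lower, beside 3.68% of all genes in either direction and 2.05% in that direction. The smallest adjusted p of any member was 0.688. The 95% intervals of the fold change lay within 1.2-fold in either direction for 94 of the 100 members, within 1.1-fold for 58 and within 2-fold for all 100. The 6 wider than 1.2-fold were Ndufa4l2, Cox4i2, Cox6b2, Ndufs6b and Cox8b, whose means were 6.87 to 21.2 TPM, and mitochondrial ND4L.

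**Figure D1:**
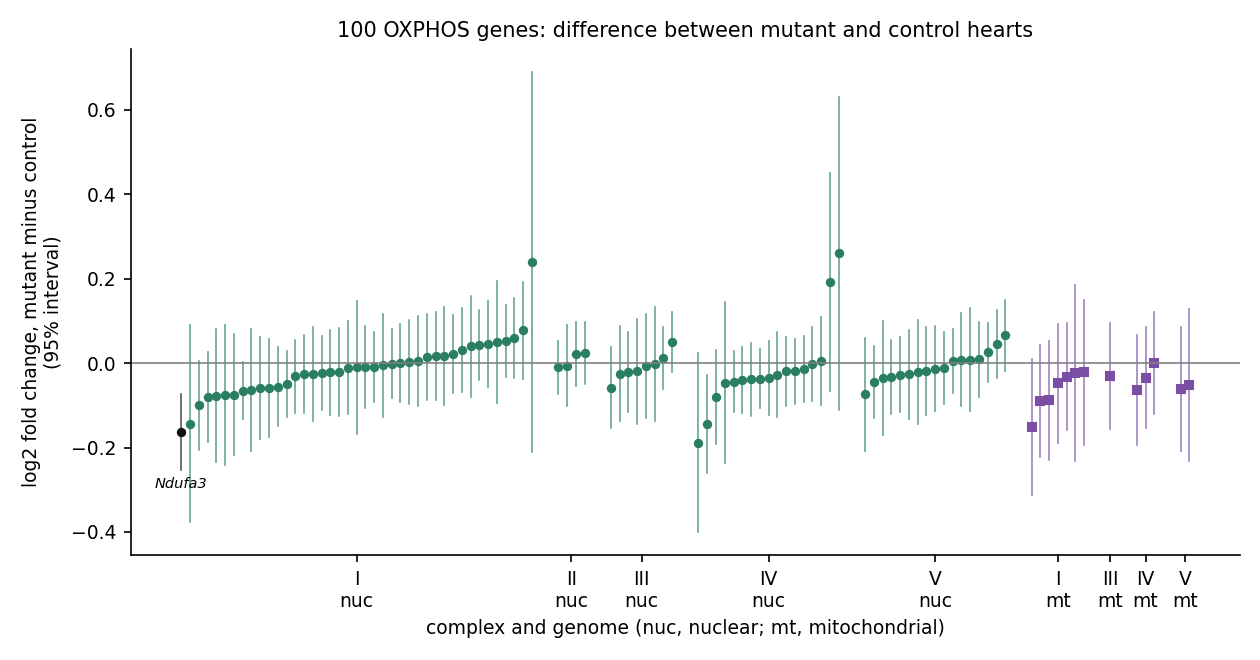
Log2 fold change (mutant minus control, on log2(TPM + 1)) of each of the 100 genes with its 95% interval, grouped on the x axis by complex and genome and sorted within a group. Ndufa3, in black, is the gene whose groups did not overlap, and the wide intervals at the right of nuclear complexes I and IV belong to the low-level isoforms Ndufa4l2, Cox6b2 and Cox4i2.

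Summed over each genome, the groups overlapped. The 87 nuclear genes summed to 35334 ± 1086 TPM in controls and 35103 ± 962 TPM in mutants (SD, n = 4 each), a difference of -0.654% of the control mean. The 13 mitochondrially encoded genes summed to 118768 ± 7781 TPM in controls and 115300 ± 4003 TPM in mutants (SD, n = 4 each), a difference of -2.92%. All 100 together made up 15.6% to 17.4% of the listed TPM of a library. The mitochondrial sum was 3.37 ± 0.267 times the nuclear sum in controls and 3.29 ± 0.163 times in mutants (SD, n = 4 each), with overlapping ranges of 3.00 to 3.63 and 3.12 to 3.48.

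The median log2 fold change was -0.014 for the nuclear genes and -0.048 for the mitochondrial genes, beside -0.0033 over all genes tested. Of the nuclear genes 29 had a higher and 58 a lower mean log2 level in the mutants, and of the mitochondrial genes 0 had a higher and 13 a lower one, beside 51.8% lower over all genes. These signs rested in part on single libraries. Control replicate 3 held the highest level of all 13 mitochondrial genes, and without it the difference in their sum was -0.0486% and 8 of the 13 were lower. With quantile normalization 7 of the 13 were lower. In the other alternatives that included mitochondrial genes, 11 to 13 of the 13 were lower. Control replicate 1 held the highest level of 39 of the 87 nuclear genes and mutant replicate 2 the lowest of 32. Without control replicate 1 the nuclear difference was 0.741% and 36 of 87 genes were lower, and without mutant replicate 2 it was 0.523% and 41 of 87 were lower. A correction for GC content and length within each library, available for 83 of the nuclear genes, left 32 of those 83 lower and moved the nuclear median to 0.0060. With that correction all 13 mitochondrial genes were still lower.

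**Figure D2:**
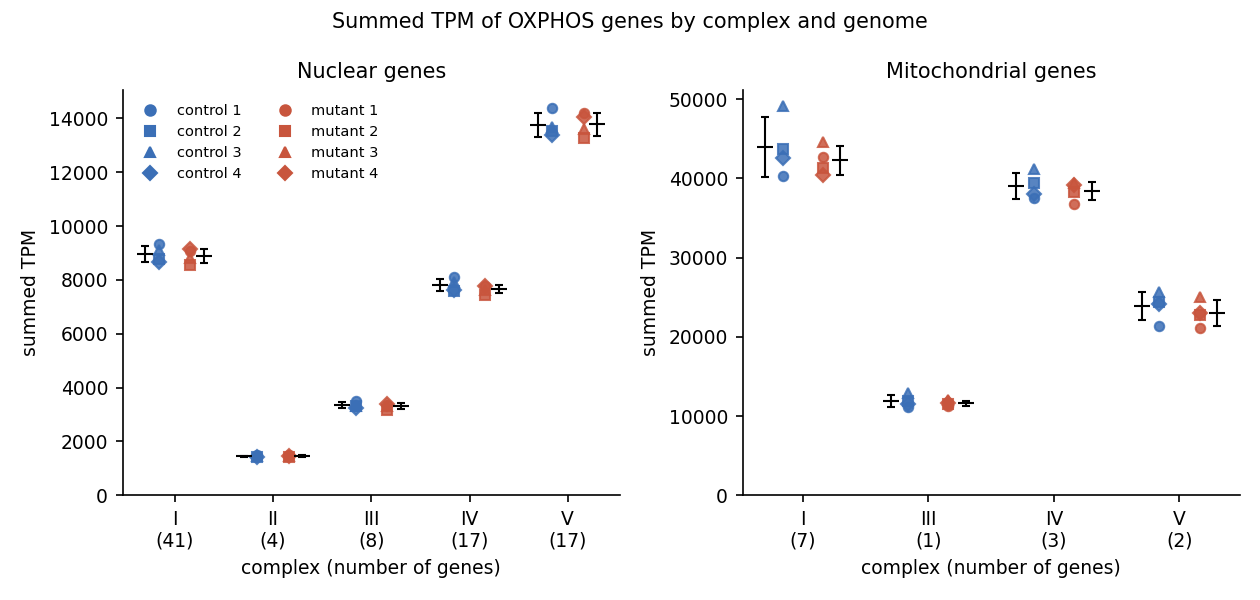
Summed TPM of the nuclear genes (left) and the mitochondrially encoded genes (right) of each complex in the 4 control and 4 mutant libraries, with the mean and SD of each group as black bars and the number of genes under each complex. Control 3 is the highest library for every mitochondrial sum, control 1 for the nuclear sums of complexes I, III, IV and V, and the groups overlap in every complex.

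By complex, nuclear sums differed by -0.976% for complex I (41 genes; 8974 ± 300 TPM in controls and 8886 ± 268 TPM in mutants, SD, n = 4 each) and by 0.513% for complex II (4 genes; 1449 ± 24.1 and 1457 ± 33.6 TPM). The nuclear sums of complex III (8 genes) and complex IV (17 genes) differed by -0.928% and -2.0%. That of complex V (17 genes) differed by 0.264%. Among mitochondrial genes the differences were -3.70% for the 7 of complex I, -2.20% for CYTB of complex III, -1.67% for the 3 of complex IV and -3.88% for the 2 of complex V. The mitochondrial over nuclear ratio of summed TPM was 4.90 ± 0.444 in controls and 4.76 ± 0.267 in mutants for complex I. It was 5.0 ± 0.268 and 5.02 ± 0.193 for complex IV and 1.74 ± 0.173 and 1.67 ± 0.148 for complex V (SD, n = 4 each). In none of the complexes did the ranges of the groups separate. Complexes were assigned by symbol, so the sums and ratios of complex I include Ndufa4, whose product is now placed in complex IV. Most of these differences changed sign when 1 library was left out. Without control replicate 3 the mitochondrial differences were 0.313% for complex I, 0.762% for complex III and 0.177% for complex IV, whereas that of complex V stayed between -7.12% and -1.23% whichever library was left out. Without control replicate 1 the nuclear differences were 0.325% for complex I and 0.554% for complex III, and both also turned without mutant replicate 2. Without mutant replicate 1 those of complexes II and V were -0.417% and -0.753%, and complex V turned without control replicate 2, control replicate 4 or mutant replicate 4 too. The nuclear difference of complex IV stayed between -2.86% and -0.747%.

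Complex I takes electrons from NADH. Its highest nuclear row by TPM was Ndufa4 at 687 TPM, the product of which is now placed in complex IV, and the accessory subunit Ndufa11 and Ndufs4 were at 47.6 and 94.8 TPM, the lowest apart from the isoform row Ndufa4l2 and the extra rows Ndufb4b, Ndufb4c and Ndufs6b. Ndufa3 (chromosome 7, bases 3617347 to 3620165, plus strand), an accessory subunit, had the smallest p of all members. Its level was 311, 311, 326 and 296 TPM in controls and 289, 267, 270 and 284 TPM in mutants. All 4 mutant values lay below all 4 control values, with a log2 fold change of -0.16 (SE 0.040, 95% interval -0.25 to -0.07). The limma p was 0.0023 unadjusted and 0.688 after adjustment over all genes, so the difference is reported as not passing. It was the same in sign in all 18 alternatives, at log2 fold changes of -0.19 to -0.13 and adjusted p of 0.427 to 0.928.

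Ndufa7 (chromosome 17, bases 33824572 to 33838316), another accessory subunit, came next in complex I. It was at 228, 231, 231 and 221 TPM in controls and 213, 216, 215 and 226 TPM in mutants, with mutant 4 inside the control range (log2 fold change -0.07, SE 0.030; limma adjusted p of 0.823). The nuclear core subunits bind flavin and iron-sulphur clusters and form the ubiquinone site, and the 6 described here had overlapping groups. Ndufv1, which holds the NADH site, was at 255 to 290 TPM in controls and 264 to 293 TPM in mutants. Ndufs1, its iron-sulphur neighbour, was at 216 to 249 and 227 to 243 TPM. The means of Ndufs3, Ndufs7, Ndufs8 and Ndufv2 over the controls were 162 to 217 TPM, and each group overlapped. Across these 6 core subunits the 95% intervals ran from -0.13 to 0.15 on the log2 scale.

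In the Nduf and Cox6c series, the rows Ndufb4b, Ndufb4c, Ndufs6b and Cox6c2 stood at 56.6, 28.8, 15.7 and 24.7 TPM. The transcripts of Ndufb4c, Ndufs6b and Cox6c2 matched those of the members Ndufb4, Ndufs6 and Cox6c, so reads of either gene of a pair could be counted at the other, and Ndufb4b was not in the annotation searched. Of the 100 members, 33 had a transcript elsewhere in the genome that matched at 95% identity or more over at least 150 bases. Copies were looked up by name, so a copy listed under another name was not counted. For 8 of the 33 the copies found outside the set, such as Gm10221 for Atp5l at 154 TPM, reached at least 10% of the member's own level. Ndufa12-ps stood at 127 TPM, beside 108 TPM for Ndufa12, and Cox5b-ps at 105 TPM, beside 761 TPM for Cox5b. These 2 pseudogene rows were not among the copies counted, so the count of 8 may be too low. Adding the copies found by name left the nuclear difference at -0.697% and the mitochondrial difference at -2.83%.

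**Figure D3:**
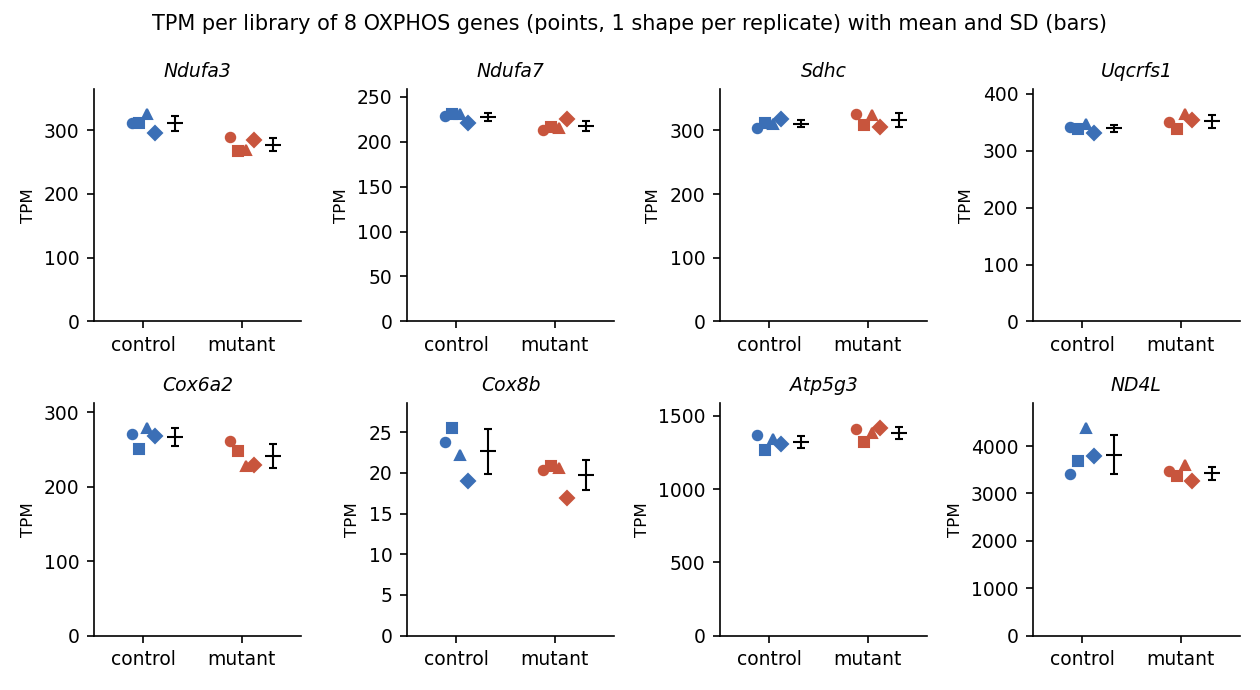
TPM in each control (blue) and mutant (red) library of 7 nuclear genes, each with 1 of the 2 smallest p-values of its complex, and of mitochondrial ND4L, each on its own axis from 0, with mean and SD as black bars. Only the Ndufa3 panel shows 4 mutant points below all 4 control points.

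Complex II, succinate dehydrogenase, joins the tricarboxylic acid cycle to the chain and has no mitochondrially encoded subunit. Its 4 genes stood within a narrow range of levels, from 313 to 399 TPM. The flavoprotein subunit Sdha was at 406, 395, 393 and 384 TPM in controls and 419, 387, 397 and 399 TPM in mutants (log2 fold change 0.02; limma adjusted p of 0.959). The membrane anchor Sdhc was at 303, 312, 311 and 317 TPM and 326, 308, 324 and 306 TPM (log2 fold change 0.02; limma adjusted p of 0.950). The iron-sulphur subunit Sdhb and the anchor Sdhd also overlapped, at control means of 400 and 345 TPM. The intervals of all 4 lay between -0.10 and 0.10 on the log2 scale.

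Complex III passes electrons from ubiquinol to cytochrome c. Uqcrfs1, the Rieske iron-sulphur protein, had the smallest p there, at 343, 338, 346 and 332 TPM in controls and 350, 339, 365 and 353 TPM in mutants. Mutant 2 lay inside the control range, and the log2 fold change was 0.05 (SE 0.032; limma adjusted p of 0.865). The hinge protein gene Uqcrh, the most abundant nuclear member of the complex, was at 746, 713, 727 and 677 TPM and 676, 650, 713 and 711 TPM (log2 fold change -0.06; limma adjusted p of 0.897). The core protein gene Uqcrc1 was at 364 to 407 TPM in controls and at 437, 373, 373 and 364 TPM in mutants, where mutant 1 stood apart.

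Complex IV, cytochrome c oxidase, reduces oxygen, and it is where isoform pairs allow heart and ubiquitous forms to be compared. The ubiquitous forms dominated at this stage. Cox8a stood at 902 TPM and Cox8b at 21.2 TPM, a 42.6-fold difference in mean level, and Cox8b made up 2.29% of the pair. Cox6a2, by contrast, made up 24.7% of Cox6a1 and Cox6a2 together, and Cox7a1 made up 23.9% of Cox7a1 and Cox7a2. Thus 3 heart and muscle isoforms of the same complex differed in their share, with Cox8b far below the others. Cox4i2, an isoform known for its response to low oxygen, made up 1.19% of its pair with Cox4i1. Cox6b2, known from testis, made up 1.51% of its pair with Cox6b1. Cox8c was listed at 0 in every library.

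Cox6a2 (chromosome 7, bases 128205435 to 128206366, minus strand) was the other member with an unadjusted p below 0.05. It was at 271, 251, 279 and 268 TPM in controls and at 262, 248, 227 and 230 TPM in mutants. Mutant 1 lay within the control range, and the log2 fold change was -0.14 (SE 0.052, 95% interval -0.26 to -0.03; limma p of 0.0200 unadjusted and 0.799 adjusted). The unadjusted p stayed below 0.05 in 14 of 18 alternatives, with log2 fold changes of -0.18 to -0.11 and adjusted p of 0.582 to 0.967. Its partner Cox6a1 was at 739 to 821 TPM in controls and 757 to 799 TPM in mutants, with a log2 fold change interval of -0.09 to 0.09.

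As a share of the pair, Cox6a2 was at 24.8%, 25.4%, 26.1% and 26.1% in controls and at 24.7%, 24.6%, 22.6% and 23.1% in mutants. The groups did not overlap, by a gap far smaller than the spread within either, and this share was singled out after its values were seen, so no test is given. In the same libraries, 0 of the 11 ventricular markers had an unadjusted p below 0.05, at a median log2 fold change of 0.0029. Of the 8 atrial markers 7 were tested, and 0 passed after adjustment in limma. An unadjusted p below 0.05 was found for 2 of the 7, beside 6.10% of all genes tested. The median log2 fold change of the 7 was 0.12, and the 8 summed to 7803 to 8243 TPM in controls and 8058 to 8429 TPM in mutants. Whether chamber content has a part in the Cox6a2 share was not tested.

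**Figure D4:**
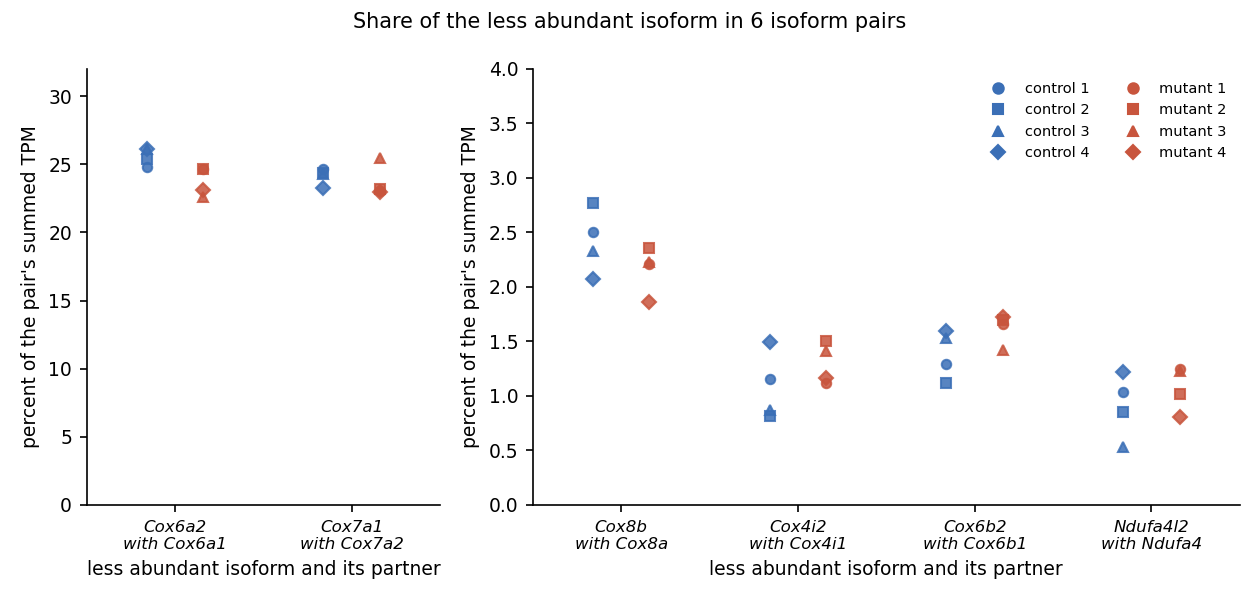
Percent of the summed TPM of an isoform pair taken by its less abundant member in each of the 4 control and 4 mutant libraries, for the pairs with larger shares (left) and smaller shares (right), each axis from 0. Cox6a2 runs from 24.8% to 26.1% in controls and 22.6% to 24.7% in mutants, and the groups of the other 5 pairs overlap.

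For Cox8b, control values were 23.8, 25.5, 22.2 and 19.0 TPM and mutant values 20.4, 20.8, 20.6 and 17.0 TPM, overlapping (log2 fold change -0.19, SE 0.095; limma adjusted p of 0.841). Cox7a1 was at 114 to 130 TPM in controls and 110 to 124 TPM in mutants (log2 fold change -0.08; limma adjusted p of 0.865). The 3 heart and muscle isoforms had lower means in the mutants and none passed, beside 14 of the 17 nuclear complex IV genes with a lower mean log2 level (median log2 fold change -0.034), the partners Cox8a and Cox7a2 included. Cox4i2 was at 8.88 to 15.9 TPM in controls and 12.6 to 15.8 TPM in mutants (log2 fold change 0.26, SE 0.165; limma adjusted p of 0.867), and Cox6b2 at 10.2 to 15.0 and 13.0 to 16.3 TPM (log2 fold change 0.19; limma adjusted p of 0.861). Ndufa4l2, the low-oxygen responsive relative of Ndufa4, made up 0.993% of its pair, at 3.74 to 8.24 TPM in controls and 5.93 to 8.58 TPM in mutants (log2 fold change 0.24; limma adjusted p of 0.915). Its locus overlaps Shmt2 (60.0 TPM) on the opposite strand, and Cox4i2 lies opposite neighbours too, so that with the strand setting of the counting unknown these low values are uncertain. The most abundant nuclear subunit of the complex, Cox4i1, was at 1050 to 1120 TPM in controls and 1032 to 1110 TPM in mutants, and Cox5a was at 572 to 616 and 559 to 596 TPM. Cox7a2l, which promotes joining of complexes III and IV, was at 267 to 294 and 259 to 290 TPM.

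Complex V makes ATP. Its catalytic subunit gene Atp5b was the most abundant nuclear member, at 2819, 2713, 2728 and 2649 TPM in controls and 2892, 2659, 2710 and 2715 TPM in mutants. The alpha subunit gene Atp5a1 followed, at 1478 to 1539 TPM and 1485 to 1627 TPM (log2 fold change 0.05; limma adjusted p of 0.906). A set of 3 genes encodes the same mature c subunit of the membrane ring, and Atp5g3 gave 62.3% of their summed TPM, with 18.9% from Atp5g1 and 18.9% from Atp5g2. Atp5g3 had the smallest p in the complex, at 1368, 1266, 1339 and 1311 TPM in controls and 1410, 1321, 1385 and 1416 TPM in mutants. The groups overlapped, and the log2 fold change was 0.07 (SE 0.037; limma adjusted p of 0.856). For Atp5g1, a near-identical processed copy, Gm10039, was listed at 162 TPM beside the gene's own 410 TPM, so its level is uncertain.

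The 13 mitochondrially encoded genes lie on 1 circular genome, and their levels ran from 1385 TPM for ND3 to 20877 TPM for COX1, a 15.1-fold range per unit length. COX1, the catalytic subunit of complex IV, was at 20005, 21486, 22089 and 19972 TPM in controls and at 20725, 20862, 20912 and 20965 TPM in mutants, and it stood 7.63-fold above Atp5b. After COX1 came ND1, CYTB, ATP8, ATP6 and COX2, with means of 10556 to 12241 TPM. ND6, COX3, ND4, ND2 and ND5 followed at 5930 to 7426 TPM, then ND4L at 3619 TPM and ND3. ND6, the only mitochondrially encoded member on the minus strand, stood at 1.25 times the level of ND5, which lies opposite its end. With the strand setting of the counting unknown, reads from the opposite strand may be counted at ND6, so its level is uncertain. Some neighbours in that order could not be separated: CYTB and ATP8, ATP8 and ATP6, and ND6 and COX3 were each in the stated order in 4 of 8 libraries. COX2 was below ATP6, ND5 was above ND4L and ND4L was above ND3 in 8 of 8 libraries, by differences larger than the SD between controls. This order is that of the rows as listed and depends on how reads shared with identical chromosome 1 copies were divided. Added to its copy Gm10925, ATP6 had a mean of 23901 TPM, above that of COX1. Added to its copy Gm10222, ND4L had a mean of 7769 TPM, above that of ND5.

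**Figure D5:**
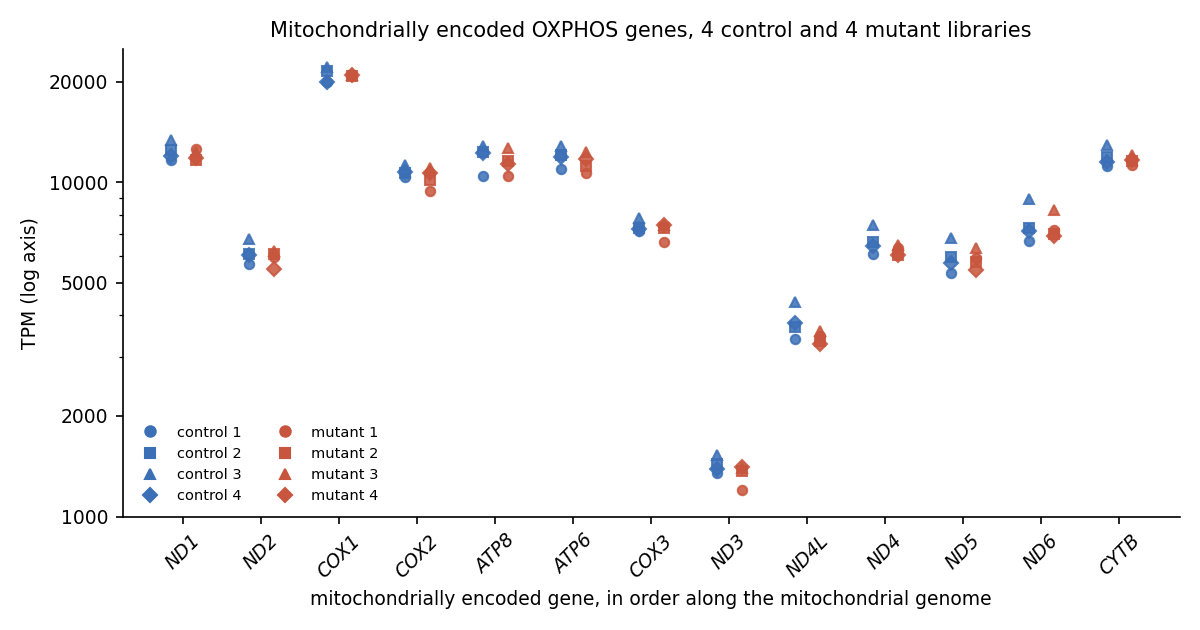
TPM on a log axis of the 13 mitochondrially encoded genes, in order along the mitochondrial genome, in the 4 control and 4 mutant libraries. Of the rows as listed, without their nuclear copies, COX1 is highest and ND3 lowest in every library, and control 3 is the highest library for all 13 genes.

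ND4L (mitochondrial genome, bases 9877 to 10173), a membrane subunit of complex I, had the smallest p of the 13. It was at 3400, 3683, 4377 and 3798 TPM in controls and at 3464, 3359, 3595 and 3272 TPM in mutants. Control 3 was high and control 1 lay within the mutant range, and the log2 fold change was -0.15 (SE 0.072; limma p of 0.0638 unadjusted and 0.840 adjusted). ND3 was at 1352, 1441, 1528 and 1390 TPM and 1199, 1370, 1394 and 1406 TPM (log2 fold change -0.09; limma adjusted p of 0.883). COX2 was at 10393, 10695, 11288 and 10767 TPM and 9441, 10174, 11004 and 10687 TPM, with mutant 1 low (log2 fold change -0.06; limma adjusted p of 0.926). The intervals of all 13 lay between -0.31 and 0.18 on the log2 scale.

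Some mitochondrial values share reads with other rows. ATP8 and ATP6 overlap by 43 bases and ND4L and ND4 by 7 on the same strand, ATP6 and COX3 share 1 base, and ND5 and ND6 share 14 bases on opposite strands. On chromosome 1, Gm10925 (bases 24613971 to 24614651) is identical to ATP6 over 678 bases and was listed at 12195 TPM, beside 11706 TPM for ATP6. Gm10222, also on chromosome 1, is identical to ND4L over 294 bases and was listed at 4150 TPM, beside 3619 TPM. Reads of such pairs cannot be assigned from sequence alone. COX1, COX2, COX3, ND2, ND3, ND4 and ND5 also matched transcripts elsewhere, ND4 for example at 100% identity over 876 bases. Those copies were not found by name, so their levels are unknown and the mitochondrial difference with copies leaves them out. Added together, ND4L and Gm10222 were at 7287, 7934, 9369 and 7903 TPM in controls and 7845, 7430, 7601 and 6783 TPM in mutants, overlapping. The mitochondrial ribosomal RNAs mt-Rnr1 and mt-Rnr2 were listed at 562 and 1017 TPM, below every one of the 13 mRNAs.

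Genes around the complexes were read from 4 lists. Of 27 tested partners and electron carriers, 0 passed at an adjusted p below 0.05 in limma. An unadjusted p below 0.05 was found for 0 of them, beside 6.10% of all genes tested, and the median log2 fold change was 0.024. Cyc1, the cytochrome c1 subunit of complex III that the symbol rule does not take, was at 368 to 375 TPM in controls and 360 to 397 TPM in mutants, and cytochrome c (Cycs) at 144 to 154 and 142 to 154 TPM. The adenine nucleotide carrier gene Slc25a4 was at 1586 to 1686 and 1576 to 1686 TPM. The smallest p-values in the list were those of 2 ubiquinone synthesis genes, Coq2 (log2 fold change 0.11; limma adjusted p of 0.821) and Coq6 (log2 fold change 0.08; limma adjusted p of 0.840).

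Of 55 tested assembly factors, 0 passed in limma after adjustment, and 4 higher and 1 lower had an unadjusted p below 0.05 (2.65% and 3.45% of all genes). The median log2 fold change was 0.014. The 4 higher were the complex I factors Nubpl, Ndufaf8, Ndufaf1 and Ndufaf7, and the lower was the complex IV factor Surf1; Ndufaf1, Ndufaf7 and Surf1 were named after their values were seen. Nubpl, which delivers iron-sulphur clusters to complex I, was at 12.5, 12.3, 11.5 and 13.2 TPM in controls and 16.3, 14.7, 13.1 and 14.9 TPM in mutants (log2 fold change 0.23, SE 0.072; limma p of 0.0103 unadjusted and 0.780 adjusted). Mutant 3 lay within the control range. Ndufaf8 had a log2 fold change of 0.16 (limma adjusted p of 0.800), and Ndufaf1 and Ndufaf7 had ones of 0.14 and 0.11. Surf1 was at 29.2 to 31.8 TPM in controls and 26.2 to 29.0 TPM in mutants, not overlapping (log2 fold change -0.13; limma adjusted p of 0.800). Groups did not overlap for 2 more assembly factors, Cox15 (higher, log2 fold change 0.08) and Cmc1 (lower, log2 fold change -0.07), also named after the fact, beside 1.63% of all genes that did not overlap and were higher and 2.05% that were lower.

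Of 33 tested genes for mitochondrial DNA maintenance and transcription, 0 passed in limma after adjustment, 3 higher and 0 lower had an unadjusted p below 0.05 (2.65% and 3.45% of all genes), and the median log2 fold change was 0.025. Ssbp1, the mitochondrial single-stranded DNA binding protein, was at 29.9, 28.4, 29.5 and 29.9 TPM in controls and 34.0, 32.4, 31.4 and 33.9 TPM in mutants. All mutants lay above all controls (log2 fold change 0.16, SE 0.042; limma p of 0.0043 unadjusted and 0.720 adjusted). Tfam, which packages mitochondrial DNA and starts its transcription, was named after its values were seen. It was at 25.0, 24.6, 25.3 and 24.8 TPM and 27.8, 26.3, 27.0 and 27.1 TPM, again without overlap (log2 fold change 0.12, SE 0.037; limma p of 0.0124 unadjusted and 0.780 adjusted). These 2 of 33 genes stand beside 1.63% of all genes that did not overlap and were higher. Mterf2, a factor of the mitochondrial transcription termination family, was at 7.80, 6.52, 7.25 and 6.45 TPM in controls and 9.58, 10.2, 10.5 and 7.17 TPM in mutants (log2 fold change 0.36; limma adjusted p of 0.780). The mitochondrial RNA polymerase gene Polrmt was at 13.7 to 15.9 and 12.5 to 16.0 TPM.

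Of 17 regulators of the mitochondrial programme, 0 passed in limma after adjustment. An unadjusted p below 0.05 was found for 0 of them, beside 6.10% of all genes tested, and the median log2 fold change was -0.0081. The coactivator gene Ppargc1a was at 32.1 to 33.3 TPM in controls and 30.2 to 35.3 TPM in mutants. Gabpa, for the DNA-binding subunit of an ETS factor whose letters were searched above, was at 42.2 to 46.8 and 43.2 to 45.4 TPM, and its locus overlaps that of Atp5j. Nrf1 was at 23.5, 23.7, 21.3 and 23.8 TPM in controls and 23.4, 20.7, 20.8 and 21.0 TPM in mutants, with 1 library in each group standing among the values of the other (log2 fold change -0.10; limma adjusted p of 0.857). Mef2c, a cardiac transcription factor, had a log2 fold change of 0.07 (limma adjusted p of 0.906).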

How the data were processed

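The authors deposited 1 table of TPM values for 8 libraries, per its header. The submitters' processing notes name FastQC, Trim Galore 0.6.7, HISAT2 2.2.1, StringTie 2.2.1, featureCounts and DESeq2, and the builds GRCm38 and mm10, without roles, order, strand setting or annotation. TPM keeps no depth, so counting error is unknown; the listed TPM of a library summed to 923473 to 949762. Values were tested as log2(TPM + 1) with limma 3.58.1 (R 4.3.3; variance trend, Benjamini-Hochberg) on genes at 1 TPM or more in at least 4 libraries; fold changes are on that scale, which understates those of low genes. The script was tested on simulated data. Gene coordinates are from the table; length, GC content (96 of 100 members) and transcripts for the blastn 2.17.0 search for copies are from GENCODE on GRCm38. Named genes are all mitochondrial ones, and per complex the most abundant, the 2 with the smallest p, the core subunits and the isoform families; non-overlapping members; the 2 smallest p-values of each related list; and Atf4. Other genes given with values, such as Cyc1, Cycs, Slc25a4, Polrmt, Ppargc1a, Gabpa, Ndufa11 and Ndufs4, fall outside that naming rule. Members, lists and rules were chosen with earlier results of these data known. Alternatives were another pseudocount, filter or scaling, no variance trend, the replicate number as a block, GC and length correction, and each library left out in turn. P-values measure the spread between these libraries. No protein sequences were used here. The values of 1 member are not reported here on their own.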

Additional observations from a re-analysis of the deposited data

Results flagged for a closer look

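In each group of 4 libraries, the highest and lowest values of the members and related genes named above were compared with the other 3 by Dixon's ratio. Chance flags about 1 group in 20, which over 154 groups is 7.7, and 8 were found. COX3 was high in control 3, with 7845 TPM beside 7170 to 7277 TPM for the remaining control libraries. Uqcrc1 was high in mutant 1, with 437 TPM beside 364 to 373 TPM for the remaining mutant libraries. Cox5a was low in mutant 2, at 559 TPM against 591 to 596 TPM, and Cox8b was low in mutant 4, at 17.0 TPM against 20.4 to 20.8 TPM. Nrf1 was low in control 3, at 21.3 TPM against 23.5 to 23.8 TPM, and high in mutant 1, at 23.4 TPM against 20.7 to 21.0 TPM. Cox15 was high in mutant 1, at 35.0 TPM against 30.2 to 30.4 TPM, and Cmc1 was low in mutant 2, at 16.0 TPM against 17.1 to 17.2 TPM.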

How the results depend on the processing

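In 18 alternatives, 8 of which left out a library, no member had an adjusted p below 0.05. Members with an unadjusted p below 0.05 numbered 2 as reported, 5 with quantile normalization, 7 of 96 with GC and length correction (4 higher, 3 lower), and 1 to 6 when a library was left out. The shares of all genes in the same settings were 6.10%, 6.40%, 7.60% and 5.17% to 6.67%. Over all genes the adjusted count was 6 as reported, 0 without the filter, 0 without the variance trend, and 0 to 3 when a library was left out. Sdha had log2 fold changes of -0.000133 to 0.039 when a library was left out, its sign turning without mutant replicate 1. Of the 32 members given above by level only, 27 had the other sign of log2 fold change in at least 1 alternative and 0 passed in any. The mitochondrial sum had no value when mitochondrial genes were left out of the scaling. The causes were not tested. The sums with copies, the sums by complex with a library left out and the medians with GC and length correction were chosen after seeing the data.

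Same-numbered control and mutant libraries did not deviate together over all genes tested (correlations of -0.082 to 0.035). Libraries of different numbers had correlations of -0.054 to 0.057. A pairing that touched few genes would not show in such correlations, so whether the numbers pair the libraries is not known. With the replicate block 0 genes passed over all, and 4 of 100 members had an unadjusted p below 0.05, beside 5.56% of all genes. With the block and the GC and length correction together 0 genes passed, and 6 of 96 members were below 0.05, beside 6.78% of all genes. Without counts, depth sets no stated limit here; low members such as Ndufa4l2 have the widest intervals.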
